A study of Mus musculus with 9 samples.

Results

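Clock output genes carry the time signal of the circadian clock into the rest of cell metabolism, and 7 of them were described in C57BL/6J mice, in cortex dissected as anterior cingulate: Dbp, Tef, Hlf, Nfil3, Usp2, Wee1 and Nampt. They were chosen by symbol, with earlier results of these data known. A probe set was taken where the platform annotation gave it a single symbol among these, and the brighter was kept for Tef, the one member with more than 1 probe set. All 7 were measured, among 22180 genes in all, on 9 Affymetrix arrays, 3 per group. KT mice received ketamine, a blocker of NMDA-type glutamate receptors, at 3 mg/kg intraperitoneally at ZT5, where ZT counts hours from lights on. SD mice were sleep deprived between ZT0 and ZT12, in a round cage where a bar turned at 1.5 rpm. No injection is stated for the SD group. Control mice were injected with saline at ZT5. All tissue was taken at ZT13, 1.34 to -0.5 mm from bregma. SD mice therefore differed from saline mice in the forced wakefulness and the cage with the bar, and may have differed in the injection, and these cannot be told apart. The titles call the samples biological replicates, and neither sex nor age was stated.

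In the clock, the CLOCK and BMAL1 proteins bind E-box sequences and switch on their own repressors, the period and cryptochrome genes, together with output genes. Dbp, Tef and Hlf encode the PAR bZIP transcription factors, which bind D-box sequences, and NFIL3 is a repressor that competes for the same sites. Usp2 encodes a ubiquitin protease that acts on clock proteins, Wee1 a kinase that holds back entry into mitosis, and Nampt the rate-limiting enzyme of NAD salvage, through which the clock feeds the NAD-dependent deacetylase SIRT1. In mice Dbp is one of the most strongly cycling transcripts of many tissues, brain included, while Tef and Hlf cycle with smaller amplitude in brain.

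The start-site windows of the 2 members that were lowest after sleep deprivation, Dbp and Usp2, are shown first, because their levels had the highest correlation of any pair of members. RefSeq windows on GRCm38.p6, from 250 bases before to 50 bases after an annotated start, were found for 6 of the 7 members, 7 windows in all, Tef having 2. The Dbp window lies at chr7:45704997-45705296 on the plus strand and the Usp2 window at chr9:44084670-44084969, also on the plus strand. Both are printed 5′ to 3′ in lower case, since neither holds any of the 5 motifs searched.
Dbp: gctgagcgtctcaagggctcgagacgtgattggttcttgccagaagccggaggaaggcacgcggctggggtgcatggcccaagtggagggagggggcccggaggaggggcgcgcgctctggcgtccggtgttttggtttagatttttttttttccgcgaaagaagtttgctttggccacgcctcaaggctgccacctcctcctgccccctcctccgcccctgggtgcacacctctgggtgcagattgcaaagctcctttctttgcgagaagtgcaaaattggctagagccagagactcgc
Usp2: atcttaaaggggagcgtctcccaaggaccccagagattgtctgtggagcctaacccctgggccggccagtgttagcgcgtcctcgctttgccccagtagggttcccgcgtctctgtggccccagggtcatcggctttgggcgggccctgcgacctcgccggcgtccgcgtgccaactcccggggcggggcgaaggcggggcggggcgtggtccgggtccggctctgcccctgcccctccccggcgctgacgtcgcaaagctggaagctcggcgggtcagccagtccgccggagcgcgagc

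The motifs were the E-box CACGTG, the related E-prime box CACGTT, the D-box TTATGTAA, the symmetric D-box TTACGTAA and the cAMP response element TGACGTCA, each read on both strands. No 2 of them overlapped in these windows. The E-box stood in both Tef windows and in 7.15% of all 32851 windows, and the cAMP response element in the Hlf window and in 1.79% of all. The E-prime box was in 4.68% of all windows, the D-box in 0.938% and the symmetric D-box in 0.119%, and the windows of the members held none of these 3. The stretches that hold a match are shown with the motif in capitals; it starts 127 and 138 bases before the start site in the 2 Tef windows (chr15:81802423-81802722 and chr15:81811164-81811463, plus strand) and 9 bases before it in Hlf (chr11:90390868-90391167, minus strand).
Tef, first window: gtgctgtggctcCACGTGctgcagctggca
Tef, second window: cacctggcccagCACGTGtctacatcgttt
Hlf: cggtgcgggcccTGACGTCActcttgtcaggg
A match is only a match of letters, and the absence of one speaks only for these 300 bases.

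Intensities below are the authors' linear probe set values. Differences are of log2(intensity + 16) ± SE from a limma fit over all genes and 9 arrays, with 3 arrays per group. Median intensity per array ran from 97.7 in SD array 2 to 106.2 in KT array 3, and arrays of 1 group correlated at 0.986 to 0.995 over genes. Markers of cortical excitatory neurons (4 of 5 measured) summed to between 9573 and 10032 in every KT, SD and saline array but saline array 3, with 10041. No marker of the other cell types was at 0. Choroid plexus markers (6 of 7 measured), which are not of cortex, summed to 676 to 1015 in KT, 533 to 989 in SD, and 2167, 9441 and 610 in saline arrays 1 to 3. Results with saline array 2 left out are given for some of the members' differences. With 3 arrays a group, an exact permutation test cannot go below p = 0.1.

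Over all genes limma called none at adjusted p under 0.05, which is 0% of genes and 0 of 7 members in each of the 3 comparisons and in the F test for any difference among the groups. At unadjusted p under 0.05 that F test held 1287 genes, or 5.80% of all, and 1 member, Dbp. The members differed in their range over the 9 arrays. The highest array stood 1.55 times above the lowest for Dbp and 1.72 times for Nampt, with Wee1 at 1.44, Nfil3 at 1.34, Usp2 at 1.33, Tef at 1.16 and Hlf at 1.14. The SD of Dbp's log2 values over the arrays was larger than that of 89.5% of genes. Tef and Hlf were steadier than nearly all, with only 4.94% and 2.94% of genes varying less. This ranking is not matched for intensity, and Dbp, Tef and Hlf were brighter than 94.8%, 83.1% and 94.4% of genes.

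**Figure D1:**
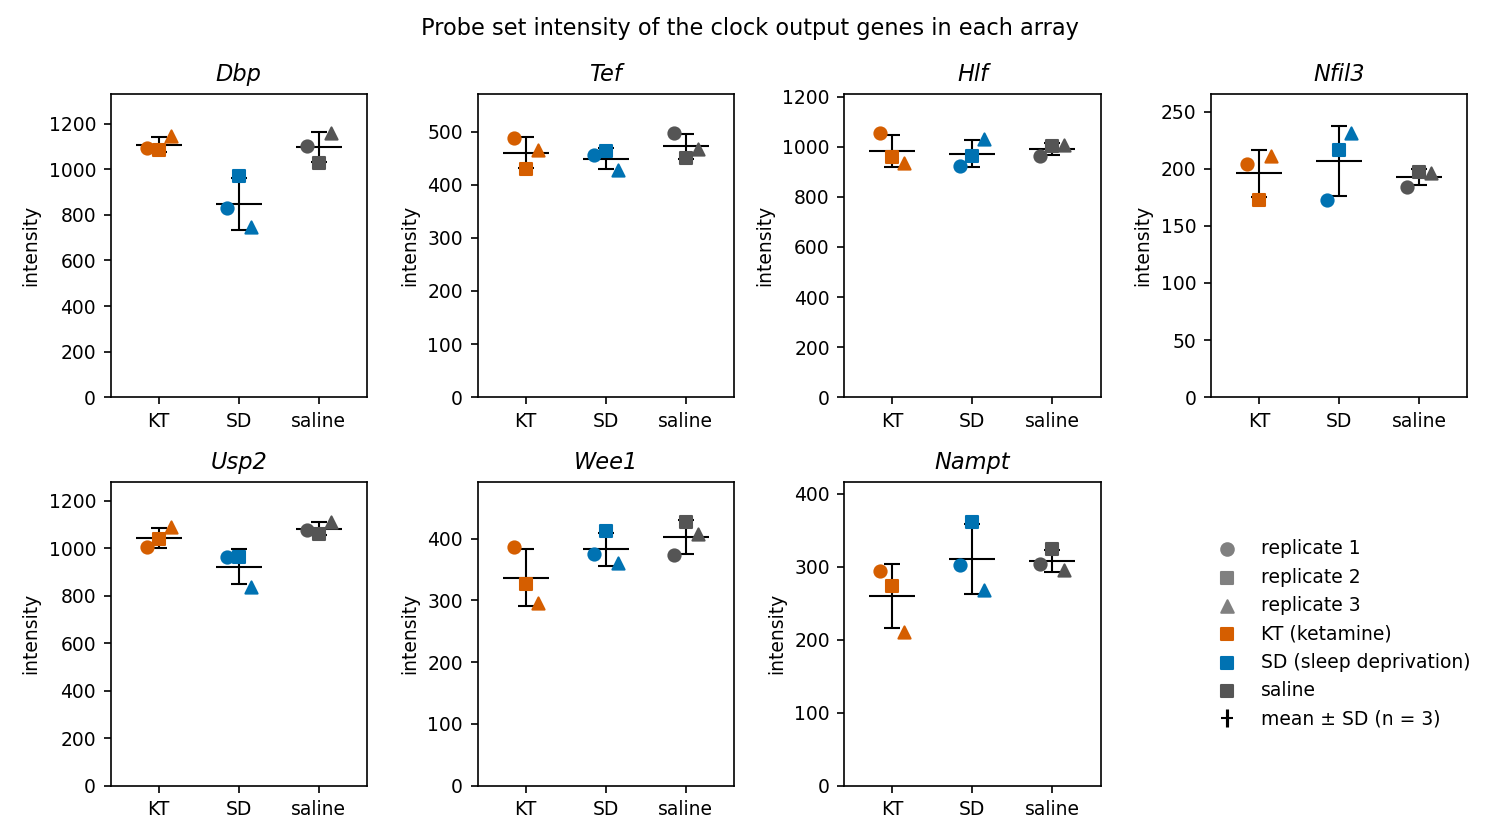
Intensity of each member in every array (points, shaped by replicate number) with the group mean ± SD (n = 3), for KT, SD and saline; each axis starts at 0. All SD points lie below all KT and saline points for Dbp and Usp2, KT array 3 is the lowest point for Wee1 and Nampt, and the groups overlap for Tef, Hlf and Nfil3.

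Dbp, the PAR bZIP factor with the strongest rhythm, had its low values after sleep deprivation. Its intensity was 1094, 1084 and 1146 in KT arrays 1 to 3, 829, 971 and 746 in SD arrays 1 to 3, and 1103, 1028 and 1159 in saline arrays 1 to 3. Every SD array lay below every saline and KT array, with SD array 2 closest to them. The mean was 849 ± 114 in SD and 1097 ± 65.8 in saline (SD of the arrays, n = 3 each). The difference was -0.37 ± 0.10, a fold of 0.774, with a 95% interval of -0.60 to -0.14. It did not pass over all genes (limma adjusted p = 0.9997), though it ranked 61 of 22180 by unadjusted p. The exact permutation p was 0.1, the lowest that 3 against 3 arrays allow. Without SD array 3 the difference was -0.28, without SD array 2 it was -0.47, and without saline array 2 it was -0.42.

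Dbp after ketamine stood near the saline level. The KT mean was 1108 ± 33.7 against 1097 ± 65.8 in saline, a difference of 0.016 ± 0.10 whose 95% interval ran from -0.21 to 0.24, and its sign changed without KT array 3 or saline array 2. Changes within that interval could not be told from none with these arrays. The direct comparison of KT with SD, which shares the SD arrays with the comparison above, gave 0.39 ± 0.10 for Dbp (95% interval 0.16 to 0.61, rank 149, limma adjusted p = 0.375). Among the members' 21 differences, those of Dbp in the SD comparisons were the 2 farthest from 0.

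Tef, the second PAR bZIP gene, read 487, 430 and 465 in KT, 456, 464 and 428 in SD and 497, 451 and 468 in saline. The groups overlapped throughout. The difference was -0.035 ± 0.09 for KT minus saline and -0.068 ± 0.09 for SD minus saline, with 95% intervals of -0.23 to 0.16 and -0.26 to 0.13. The SD difference was -0.035 without SD array 3 and -0.032 without saline array 1. The lower bound for SD lies above the estimate for Dbp, but Dbp's own interval of -0.60 to -0.14 overlaps that of Tef. A second, dimmer Tef probe set read 113, 106 and 148 in KT, 113, 104 and 113 in SD, and 113, 97.3 and 104 in saline. Averaging both probe sets turned the KT difference to 0.077 and brought the SD difference to -0.0036. The probe sets therefore differ in the sign of a KT difference that is small beside its SE in the brighter one. The dimmer one averaged 112 over the arrays, near the array medians of 97.7 to 106.2, and was highest in KT array 3.

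Hlf, the third of the family, read 1054, 958 and 935 in KT, 923, 965 and 1029 in SD and 964, 1003 and 1007 in saline. No order among the groups could be seen. KT minus saline was -0.014 ± 0.09 (95% interval -0.21 to 0.18) and SD minus saline -0.028 ± 0.09 (95% interval -0.22 to 0.17). Of the 3 PAR bZIP genes, Dbp was the one with all 3 SD arrays below the saline range, while Tef had 1 and Hlf had 1. Whether Dbp's difference is larger than those of Tef and Hlf was not tested.

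Nfil3, the repressor of the D-box, read 204, 172 and 211 in KT, 172, 216 and 231 in SD and 184, 197 and 197 in saline. The SD arrays lay on both sides of the saline arrays, SD array 1 below and SD arrays 2 and 3 above. The SD minus saline difference was 0.084 ± 0.11, with a 95% interval from -0.16 to 0.33. It was 0.0038 without SD array 3, 0.20 without SD array 1, 0.049 without SD array 2 and 0.054 without saline array 1. The KT minus saline difference was 0.017 ± 0.11 (95% interval -0.23 to 0.26). A higher level of Nfil3 beside the lower Dbp was not detectable with these arrays. With all tissue taken at ZT13, a shift of phase and a change of level cannot be told apart.

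**Figure D2:**
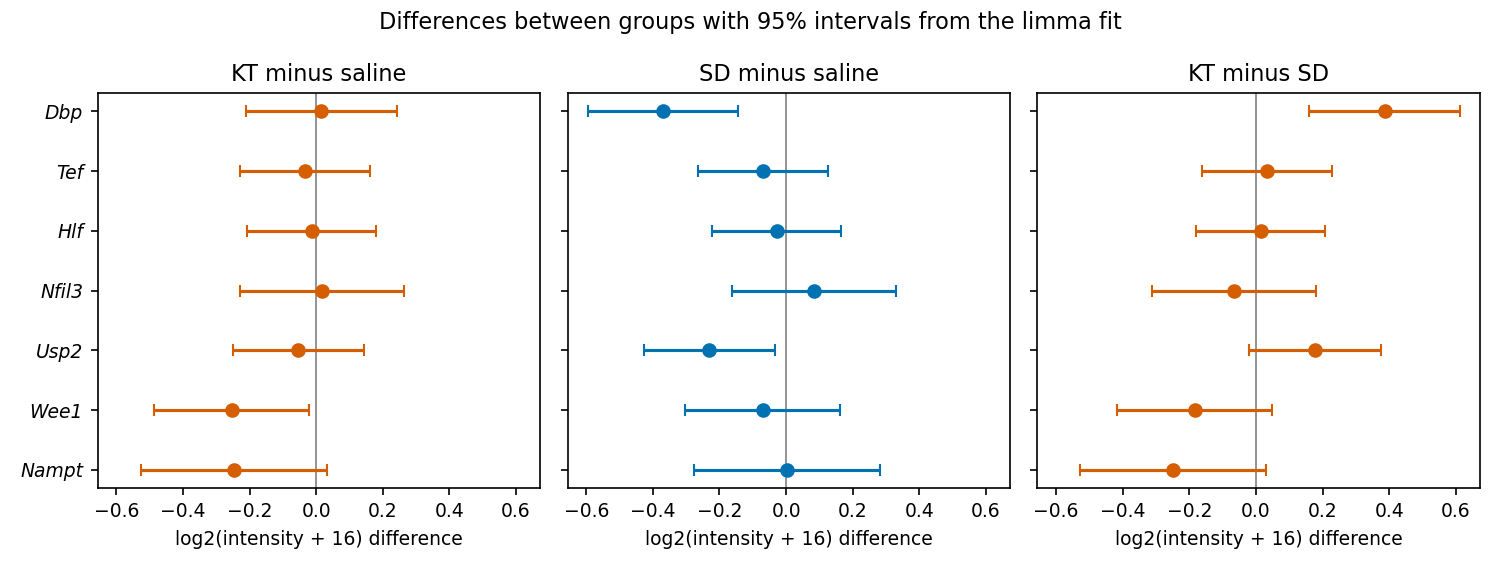
Differences of log2(intensity + 16) for the 7 members with 95% intervals from the limma fit (n = 3 arrays per group) in KT minus saline, SD minus saline and KT minus SD. The intervals leave out 0 for Dbp (-0.60 to -0.14) and Usp2 (-0.43 to -0.033) in SD minus saline, for Wee1 in KT minus saline (-0.49 to -0.020) and for Dbp in KT minus SD; they are not adjusted for the number of genes.

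Usp2, the ubiquitin protease gene, followed Dbp. It read 1003, 1038 and 1088 in KT, 965, 965 and 837 in SD and 1078, 1059 and 1112 in saline. All 3 SD arrays again lay below every KT and saline array. Its mean was 922 ± 73.8 in SD and 1083 ± 26.9 in saline, a difference of -0.23 ± 0.09 or a fold of 0.852 (95% interval -0.43 to -0.033, limma adjusted p = 0.9997, rank 406). KT minus saline was -0.054 ± 0.09 and KT minus SD 0.18 ± 0.09, the second with a 95% interval of -0.020 to 0.37. Without SD array 3 these SD comparisons stood at -0.16 against saline and at 0.11 for KT minus SD.

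In SD against saline, 2 of 7 members, Dbp and Usp2, were lower with no overlap of the arrays, where 3.54% of all genes were. The same 2 were the members lower at unadjusted p under 0.05, as 1.72% of all genes were. The members' median difference was -0.068 against -0.0088 over all genes, and 5 of 7 were below 0, as were 53.4% of genes. In KT against SD, 2 of 7 members, again Dbp and Usp2, were higher with no overlap, against 4.53% of genes, and 1 of 7, Dbp, was higher at unadjusted p under 0.05, against 5.10%. The median there was 0.014 for the members and -0.012 for all genes.

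Markers of other cell types were read as well, and limma passed none of them over all genes. Endothelial markers, all 6 measured, summed to 1349, 1147 and 1116 in KT, 1611, 1437 and 1443 in SD and 1350, 1240 and 1343 in saline, so each SD array was above each saline array. Oligodendrocyte markers (6 of 7 measured) summed to 2619 to 4616 in KT, 2674 to 3332 in SD and 2999 to 3659 in saline. All 6 were below 0 in SD minus saline, with a median of -0.22, though Mbp and Mobp were at -0.021 and -0.015. All 6 endothelial markers were above 0, with a median of 0.18. At unadjusted limma p under 0.05, 0 of the 6 oligodendrocyte and 1 of the 6 endothelial markers (Vwf, higher) were counted. By that measure 781 of 22180 genes were counted in either direction. The 6 choroid plexus markers were below 0 in SD minus saline as well, as were 53.4% of all genes, with a median of -0.24. Of these 6, 2 (Ttr and Clic6) were lower at unadjusted p under 0.05, beside 1.72% of genes, while Foxj1 was at -0.014. Ttr read 1624, 8428 and 110 in saline arrays 1 to 3 and 89.5, 104 and 428 in SD arrays 1 to 3. Its difference therefore rests on saline arrays 1 and 2. Median differences of the inhibitory neuron, astrocyte, microglial, meningeal and striatal markers in SD minus saline lay between -0.080 and 0.066. In KT minus SD all 6 endothelial markers were below 0, beside 53% of genes, with a median of -0.27. Of these, 5 were lower at unadjusted limma p under 0.05, where 2103 of 22180 genes were counted in either direction. The part of these cell types in the lower Dbp and Usp2 was not tested. In bulk tissue fewer cells of a type and less RNA per cell cannot be told apart.

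Wee1 and Nampt had their lowest value in KT array 3 and their lowest group mean in KT. Wee1 read 387, 327 and 297 in KT, 376, 413 and 361 in SD and 374, 428 and 408 in saline. KT arrays 2 and 3 were the lowest of the 9 arrays, while KT array 1 lay inside the saline range. The mean was 337 ± 46.0 in KT and 403 ± 27.4 in saline. The difference was -0.25 ± 0.11 or a fold of 0.839 (95% interval -0.49 to -0.020, limma adjusted p = 0.870, rank 627, exact permutation p = 0.2). It was -0.17 without KT array 3 or with quantile normalization. Array weights, which gave KT array 2 a weight of 7.92, carried it past the threshold, as they did 1439 of 22180 genes. It then stood at -0.27 with limma adjusted p = 0.0336. SD minus saline was -0.070 ± 0.11, -0.12 without SD array 2 or saline array 1, -0.030 without SD array 3 and -0.028 without saline array 2. KT minus SD was -0.18 ± 0.11, -0.28 without KT array 1, -0.10 without KT array 3 and -0.048 without KT array 3 and SD array 2.

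Nampt read 294, 274 and 210 in KT, 303, 362 and 268 in SD and 304, 324 and 296 in saline. All KT arrays lay below all saline arrays, KT array 1 by a narrow margin, while SD arrays 2 and 3 were the highest and the second lowest of the 9. The mean was 259 ± 43.8 in KT and 308 ± 14.5 in saline, a difference of -0.25 ± 0.13 (95% interval -0.53 to 0.033, limma adjusted p = 0.870). Without KT array 3 it was -0.11, and without saline array 2 it was -0.21. SD minus saline was 0.0027 ± 0.13 with a 95% interval from -0.28 to 0.28. KT minus SD was -0.25 ± 0.13, -0.11 without KT array 3, -0.14 without SD array 2 and -0.0036 without both.

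Those 2 arrays had the highest and the lowest median intensity. Across the 9 arrays Nampt ran against the array median, with Pearson's r = -0.846 (exact permutation p = 0.0127, 0.0889 adjusted over the 7 members) and Spearman's rho = -0.633 (exact p = 0.0760, adjusted 0.344). Without KT array 3 and SD array 2 its r was -0.325, so the relation rests on them. For Wee1 r was -0.609 (exact p = 0.0874, adjusted 0.306) and rho -0.533 (exact p = 0.148, adjusted 0.344), with r = -0.043 without those arrays. For Dbp r was -0.026 (exact p = 0.935, adjusted 0.935) and rho -0.083 (exact p = 0.843, adjusted 0.843), with r = -0.702 without those arrays, and for Usp2 r was 0.082 (exact p = 0.817, adjusted 0.935) and rho 0.150 (exact p = 0.708, adjusted 0.843), with r = -0.626 without them. Over all genes, 6.56% had r under -0.8 with the array median. With the array median as a covariate, chosen after seeing the data, KT minus saline stood at -0.20 for Nampt and -0.23 for Wee1, and SD minus saline at -0.40 for Dbp and -0.24 for Usp2.

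In KT against saline, 1 of 7 members, Nampt, was lower with no overlap of the arrays, where 7.89% of all genes were. At unadjusted p under 0.05, 1 of 7, Wee1, was lower, beside 2.35% of genes. The members' median was -0.035 and that of all genes -0.015, with 5 of 7 members and 54.6% of genes below 0.

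Across the arrays 2 pairs of members passed adjusted p under 0.05 by r, and 1 of them by rho. The exact permutation shuffles all 9 arrays and leaves aside their groups and their shared array-wide level. Of 21 pairs tested, Dbp and Usp2 had the highest correlation, r = 0.919 (exact permutation p = 0.000645, 0.0135 adjusted over the 21) and rho = 0.917 (exact p = 0.00131, adjusted 0.0275). Without SD arrays 1 and 3, the farthest from the median of Dbp, r was 0.803. Within the 6 KT and saline arrays r was 0.545 (exact p = 0.261) and rho 0.771 (exact p = 0.103). The r of their deviations from the group means, over all 9 arrays, was 0.795. Wee1 and Nampt gave r = 0.886 (exact p = 0.00140, adjusted 0.0147) and rho = 0.817 (exact p = 0.0108, adjusted 0.113), r = 0.709 without KT arrays 2 and 3, and r = 0.905 (exact p = 0.00694, rho = 0.829 with exact p = 0.0583) within the KT and saline arrays. No other pair reached unadjusted p under 0.05 by r. Dbp and Tef had r = 0.541 (exact p = 0.127, adjusted 0.714) with rho = 0.717 (exact p = 0.0369, adjusted 0.258), and Dbp and Nfil3 had r = -0.246 (exact p = 0.527, adjusted 0.945) with rho = -0.209 (exact p = 0.587, adjusted 0.973).

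**Figure D3:**
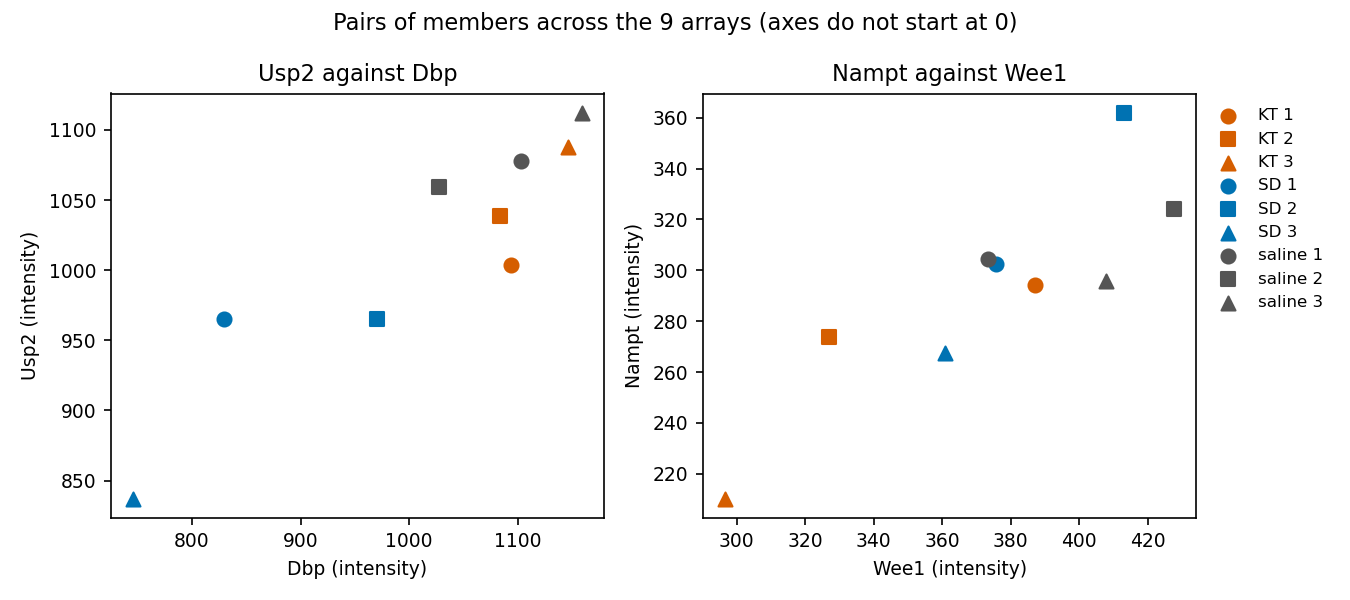
Intensity of Usp2 against Dbp and of Nampt against Wee1, 1 point per array, coloured by group and shaped by replicate number; the axes do not start at 0. The SD arrays hold the low end for Dbp and Usp2, and KT array 3 the low end for Wee1 and Nampt with SD array 2 and saline array 2 at the high end.

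Of 11083 other genes at or above the median mean intensity, those with the profile most like Dbp over the 9 arrays were Zfp46 (r = 0.960), Sat2 (0.931) and Pradc1 (0.928). Zfp46 averaged 428 in KT, 368 in SD and 435 in saline, and so was lowest in SD as Dbp was. For Usp2 they were Pld3, Gng10 and Atp11b, at 0.920 to 0.922, and for Tef they were Rsad1, Alkbh7 and Ndp (0.882 to 0.920). Hlf was most like Gabrb2, B230219D22Rik and Kitl (0.874 to 0.918), and Nfil3 most like Phf13, Srp9 and Meak7 (0.896 to 0.919). Wee1 and Nampt had closer matches, Golga4, Agpat5 and Dgki for Wee1 (0.974 to 0.980) and Ccdc174, Myg1 and Zzz3 for Nampt (0.987 to 0.989). For Dbp, Usp2, Wee1 and Nampt the closest of these genes correlated higher than the member each was paired with above. All these values describe the same arrays and share their array-wide level.

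The core loop that drives these genes was read beside them. Of its repressors 9 of 10 were measured. In SD against saline 8 of the 9 were below 0, as were 53.4% of all genes, with a median of -0.086. Limma passed 0 over all genes, and 2 were lower at unadjusted p under 0.05, beside 1.72% of genes. Those were Ciart, a repressor of CLOCK and BMAL1, and Bhlhe41, which competes for E-boxes. Array by array, relative to the saline mean, Dbp stood at -0.39, -0.17 and -0.55 in SD arrays 1 to 3, Ciart at -0.67, -0.30 and -0.73, and Bhlhe41 at -0.32, -0.21 and -0.46. In these 3 genes SD array 3 was lowest and SD array 2 nearest to saline. That order was not shared by all repressors: SD array 1 was the lowest SD array for Cry1 (-0.22, 0.043 and -0.084), Nr1d2 (-0.16, -0.056 and -0.11) and Bhlhe40 (-0.25, -0.0049 and -0.21). In KT against saline 8 of 9 repressors were again below 0, beside 54.6% of all genes, with a median of -0.11, and 1 of them, Bhlhe41, was lower at unadjusted p under 0.05, beside 2.35% of genes. Ciart stood at -0.20, -0.30 and -0.21 and Bhlhe41 at -0.21, -0.18 and -0.22 in KT arrays 1 to 3, while Dbp stood at -0.0019, -0.015 and 0.065. The 2 comparisons share the saline arrays. In KT against SD the repressors' median was -0.0073, 1 of them (Ciart, 0.33 ± 0.11) higher at unadjusted p under 0.05, beside 5.10% of genes.

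Of the activators 5 of 6 were measured. In SD against saline 3 of 5 were above 0 with a median of 0.096, while 53.4% of all genes were below 0. The only one at unadjusted p under 0.05 was Rorb, which was lower (-0.34 ± 0.13, limma adjusted p = 0.9997), beside 1.72% of genes. Arntl, which encodes BMAL1, read 648, 565 and 520 in KT, 673, 793 and 673 in SD and 630, 620 and 622 in saline. Its highest array was SD array 2 and its lowest KT array 3. Its SD minus saline difference was 0.18 ± 0.10 (limma adjusted p = 0.9997), and values of Arntl without those arrays are not given. Rorb, an activator of Arntl, stood at -0.31, -0.13 and -0.56 relative to the saline mean in SD arrays 1 to 3, the same order of arrays as Dbp. All 5 activators were below 0 in KT against saline (median -0.098) beside 54.6% of genes, and 4 of 5 in KT against SD (median -0.14), beside 53% of genes. The KT arrays did not share this. Relative to the saline mean, KT array 1 stood at 0.029 for Clock, 0.054 for Arntl, 0.025 for Rora and 0.012 for Rorb. KT array 3 was the lowest KT array for these, at -0.16, -0.25, -0.41 and -0.33. Npas2 went the other way, at -0.073, 0.0045 and 0.041 in KT arrays 1 to 3. Arntl was the 1 activator lower in KT than in SD at unadjusted p under 0.05, at -0.30 ± 0.10. In that comparison 2103 of 22180 genes were under 0.05 in either direction.

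**Figure D4:**
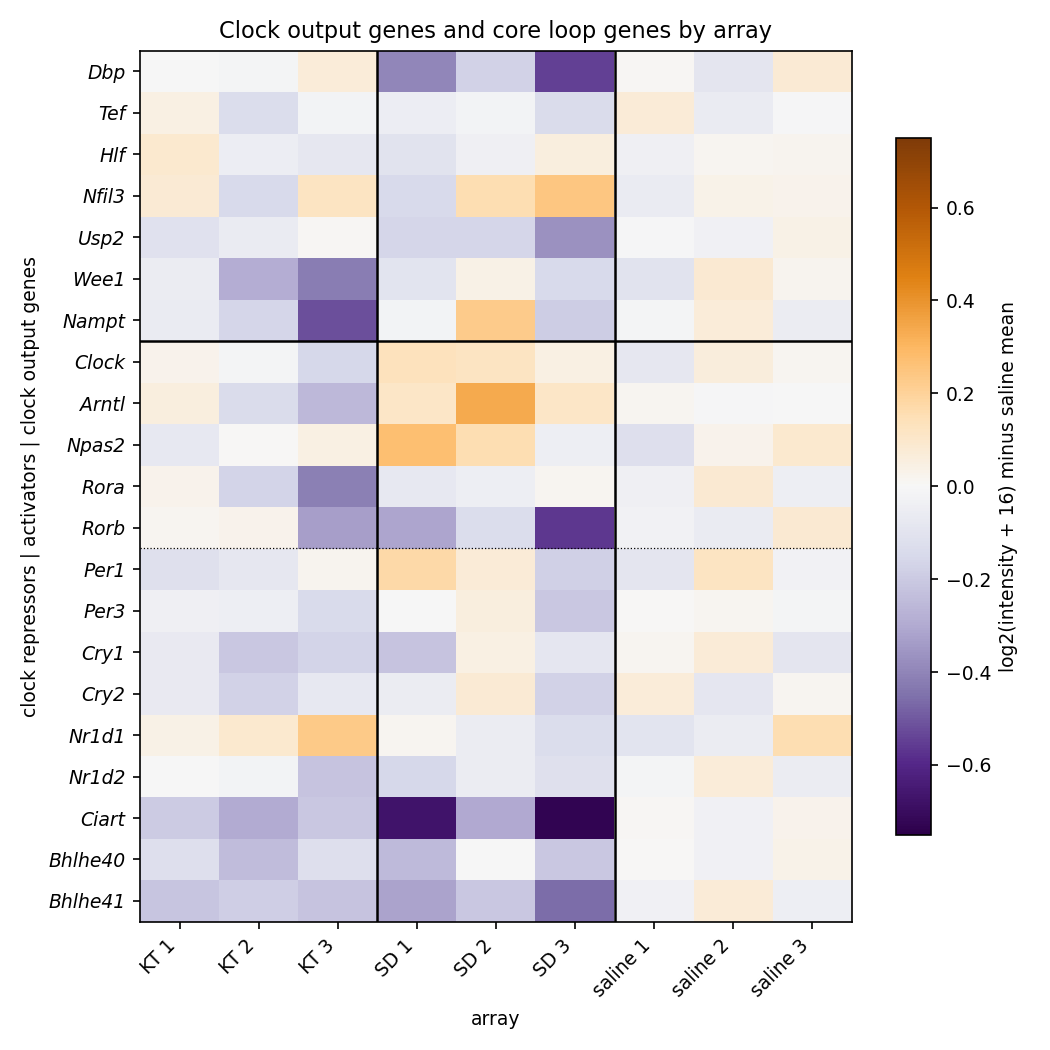
Difference of log2(intensity + 16) from the saline mean for the 7 members (top block), the 5 measured clock activators (middle) and the 9 measured repressors (bottom), by array, KT, SD and saline from left to right. Dbp, Ciart, Bhlhe41 and Rorb are darkest on the negative side in SD array 3, and Nampt, Wee1 and Rora in KT array 3.

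No gene of the neighbouring pathways passed limma's test over all genes, and the counts given next are at unadjusted p under 0.05. Of all 22180 genes, 1013 were counted by that measure in KT against saline (522 of them lower), 781 in SD against saline (382 of them lower) and 2103 in KT against SD (1132 of them higher). PAR bZIP proteins drive Pdxk, which makes the active form of vitamin B6, and in liver Alas1 and Nr1i3. With 3 of 4 measured, their median was 0.042 in KT minus saline, 0.021 in SD minus saline and 0.021 in KT minus SD, with none counted. Pdxk was at -0.16 ± 0.11 in KT minus saline and 0.042 ± 0.11 in SD minus saline. Around Nampt, 11 of 12 genes of NAD synthesis and use were measured, with medians of 0.028, -0.018 and 0.023 in the same order, 1 counted in all, Qprt, an enzyme of NAD synthesis from tryptophan, higher in KT than in SD by 0.36 ± 0.13. Sirt1 was at -0.12 ± 0.10 in KT minus saline and -0.060 ± 0.10 in SD minus saline. Around Wee1, 6 of 8 genes of mitotic entry were measured, with medians of -0.060, -0.041 and -0.0014 and none counted. Cdk1, the kinase that WEE1 inhibits, was dim, at 44.6 in KT, 39.5 in SD and 42.9 in saline.

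Around Usp2, 6 of 7 ubiquitin genes of the clock were measured, with medians of -0.13 in KT minus saline, 0.0071 in SD minus saline and -0.13 in KT minus SD. None was counted. Fbxw11, a ligase subunit that marks period proteins for degradation, was at -0.18 ± 0.10, 0.026 ± 0.10 and -0.21 ± 0.10. Of 7 other bZIP genes, which are Cebp and Atf genes and Ddit3, medians were -0.094, 0.036 and -0.13. Cebpb was counted lower in KT than in saline (-0.24 ± 0.10) and than in SD (-0.31 ± 0.10). Of 10 other widely cycling output genes, all were below 0 in KT minus saline, beside 54.6% of all genes, with a median of -0.10. Coq10b, of coenzyme Q metabolism, and Pdk4, a brake on pyruvate use, were counted there, beside 2.35% of genes, at -0.34 ± 0.11 and -0.32 ± 0.12. In SD minus saline these 10 had a median of -0.0057, with Coq10b lower (-0.29 ± 0.11) and the cell cycle inhibitor gene Cdkn1a (0.57 ± 0.12) and Rasd1 (0.51 ± 0.13) higher. Rasd1 encodes a Ras-related protein induced by glucocorticoids. In KT minus SD their median was -0.10 and Cdkn1a and Rasd1 were counted lower, at -0.74 ± 0.12 and -0.55 ± 0.13.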

How the data were processed

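RNA from dissected anterior cingulate cortex was hybridised to 9 one-colour Affymetrix arrays, 3 each for KT, SD and saline, grouped by title. The values used are the linear intensities deposited by the authors, 1 per probe set, made with PLIER 2.0 in Affymetrix Expression Console 1.1.1 per the submitters' processing notes. Normalization between arrays is not given in the sources used here. With no scanner files used, background and saturation were not assessed, and the number of arrays limits precision.

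Of 41345 probe sets, 23521 carried 1 gene symbol, 1814 several and 16010 none, and 23328 matched RefSeq by gene ID. The brightest probe set stood for each of 22180 genes. log2(intensity + 16) of all genes and all 9 arrays was fitted with limma 3.58.1 in R 4.3.3, without a filter, and p-values were adjusted by Benjamini-Hochberg over all genes at a threshold of 0.05. Single values and correlations were tested by exact two-sided permutation. No arrays were identical, and no batch is labelled. The fit was tested on simulated data.

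All 7 members were named, with up to 4 genes of each list per comparison by smallest unadjusted p, and the 3 genes most like each member by Pearson's r. Members and lists were chosen with earlier results of these data known. Alternatives were offsets of 1 and 64, centring, quantile normalization, a filter, mean of probe sets, array weights, limma-trend, only 2 groups, the replicate block and leaving out each array. The array median as a covariate and leaving out SD array 2 with KT array 3 were chosen after seeing the data. Choroid plexus, meningeal, striatal, neuronal, glial and endothelial markers were summed per array.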

Additional observations from a re-analysis of the deposited data

How the results depend on the processing

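Of 441 member values recomputed, 408 kept direction and side of the threshold, 32 changed sign and 1 passed, Wee1 in KT against saline with array weights (-0.27). Over all genes, array weights gave 1439 calls in KT against saline, 42 in KT against SD and 950 in the F test, against 0 in each as fitted. Limma-trend gave 15 in KT against SD, 3 in SD against saline and 8 in the F test. An offset of 64 gave 14 in KT against SD and 4 in the F test, leaving out the dimmest genes gave 5 in KT against SD, and array median centring gave 1 in SD against saline. Leaving out 1 array gave 0 to 214 calls in KT against SD (214 without SD array 3), 0 to 4 in SD against saline and 0 to 8 in the F test, and leaving out SD array 2 and KT array 3 gave 1 in KT against SD, 1 in SD against saline and 1 in the F test. The cause was not tested.

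The sign changes all fell on small differences. In KT minus saline, array weights gave -0.030 for Dbp and -0.12 for Nfil3, quantile normalization 0.044 for Hlf, 0.040 for Tef and 0.0019 for Usp2, and the mean of probe sets 0.077 for Tef. In KT minus SD array weights gave -0.048 for Tef. In SD minus saline Nampt was -0.072 with the array median as covariate, -0.0017 with array weights and -0.0044 with quantile normalization. Leaving out 1 array gave, in KT minus saline, -0.029 to 0.056 for Dbp, -0.065 to 0.020 for Hlf, -0.035 to 0.0996 for Nfil3 and -0.075 to 0.013 for Tef. In KT minus SD it gave -0.037 to 0.055 for Hlf, -0.18 to 0.016 for Nfil3 and -0.0067 to 0.081 for Tef, and in SD minus saline -0.069 to 0.0078 for Hlf and -0.11 to 0.0998 for Nampt.

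Dbp in SD minus saline stayed between -0.47 and -0.28 in all 21 alternatives and in KT minus SD between 0.30 and 0.49, without passing over all genes in any. The replicate block gave 0 calls in each comparison and in the F test, as the main fit did. At unadjusted p under 0.05 by limma it counted 1254 genes in KT against saline, against 1013 without it. The counts were 887 against 781 in SD against saline and 2457 against 2103 in KT against SD. Same-numbered arrays correlated between -0.20 and 0.44 in their deviations from the group means, and differently numbered arrays between -0.51 and 0.54. With 3 arrays per group this cannot settle whether the numbers pair the samples.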
